A study of Mus musculus with 6 samples.

Results

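The nuclear genes for the oxidative phosphorylation machinery were examined in maps of open chromatin from mouse macrophages of 2 ages. The set holds every protein-coding RefSeq gene on chromosomes 1 to 19 and X whose symbol begins with Nduf, Uqcr or Atp5, the 4 Sdh genes, and the Cox4 to Cox8 subunit genes. It came to 96 of 21631 protein-coding genes: 41 genes of complex I, 8 Ndufaf genes for complex I assembly factors, 4 genes of complex II, 8 of complex III, 18 of complex IV and 17 of complex V. The cells were F4/80+CD169+ macrophages of wild-type BALB/c mice, adherent cells of crushed long bones that had been expanded in culture. The young group was 3 weeks of age and the old group over 78 weeks, with 3 ATAC-seq libraries of 50000 cells per age and no further treatment given. In ATAC-seq a transposase cuts into accessible DNA, and regions with many cuts are called as peaks, here separately for each library. The labels do not say whether the 3 libraries of an age came from separate mice. The p-values therefore reflect variation among libraries, which may be technical.

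Oxidative phosphorylation couples the oxidation of NADH and succinate to the synthesis of ATP in the inner mitochondrial membrane. Complexes I and II pass electrons to ubiquinone, complex III passes them on to cytochrome c, complex IV reduces oxygen, and complex V uses the resulting proton gradient to make ATP. Most subunits are encoded in the nucleus and have to be matched by those from the mitochondrial genome, and their promoters are known targets of NRF1, ETS factors such as GABP, YY1 and the oestrogen-related receptors. Macrophages are known to shift between oxidative phosphorylation and glycolysis with their state of activation.

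The young lists held 223018 to 254410 peaks and the old lists 215947 to 245667. They covered 60.2 ± 7.07 Mb in young and 53.7 ± 8.75 Mb in old (SD, n = 3 each), and the libraries of the ages overlapped (exact permutation test, two-sided p = 0.3, where 0.1 is the smallest p possible). Old replicates 2 and 3 and young replicate 2 had the shortest covered lengths and the narrowest peaks, so covered lengths below are scaled to a common library total unless stated otherwise. Macrophage markers (Adgre1, Siglec1, Csf1r, Spi1, Cd68, Mertk, Itgam and Fcgr1) had a peak within 1 kb of a gene end in all 6 libraries in 8 of 8 cases, with summed lengths of 6573 to 7175 bp in young and 6450 to 6682 bp in old. All 7 mesenchymal stromal markers had one too, with 4067 to 4360 bp in young and 4215 to 4333 bp in old, and so did 4 of 6 B lineage, 3 of 6 neutrophil, 3 of 5 erythroid, 2 of 4 endothelial and 1 of 4 T lineage markers. Lck and Cd3g of the T lineage, Mpo of neutrophils and both adult beta-globin genes had none in any library. Summed lengths ran from 1722 to 1853 bp in young and 1307 to 1823 bp in old for the B lineage, and from 2651 to 2952 bp and 2581 to 2873 bp for neutrophils. They were 1203 to 1528 bp and 1197 to 1399 bp for the erythroid list, 1242 to 1688 bp and 1174 to 1361 bp for the endothelial list, and 1079 to 1186 bp and 1128 to 1247 bp for the T lineage. The part of other cells in the results was not tested. In bulk libraries, a larger share of cells with an open site and more insertions per cell cannot be told apart.

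Nearly all oxidative phosphorylation genes were open at both ages. A peak lay within 1 kb of at least 1 end of the gene in all 6 libraries for 87 of the 96 genes, or 90.6%, compared with 66.0% of all protein-coding genes. It was missing from every library for 5 genes, compared with 22.6% of all genes, and from some libraries for 4. The peaks were also strong ones. When each list was cut to its 50000 strongest peaks by −log10 q, 82 genes (85.4%) still had a gene-end peak in every library, against 47.7% of all genes. Among the 10000 strongest peaks the count was 44 genes (45.8%), against 22.0%. The strongest gene-end peak of the median gene with a peak stood within the top 2.69% to 3.15% of the young lists and the top 3.03% to 3.77% of the old ones. For all genes these positions ran from 6.69% to 7.13% in young and from 7.33% to 7.92% in old.

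Covered length around the gene ends was 956, 942 and 946 bp for the median oxidative phosphorylation gene in the 3 young libraries, and 945, 925 and 930 bp in the 3 old libraries. The ages overlapped, with old replicate 1 above young replicate 2. For all genes the median was 622, 588 and 624 bp in young and 617, 564 and 566 bp in old. The median gene of complex III carried the most covered length (1087 bp over the 6 libraries), followed by complex II (991 bp), the assembly factors (990 bp), complex I (989 bp) and complex V (911 bp). Complex IV stood lowest with 614 bp, close to the 609 bp of all genes. That median counts Cox7a2 as 0 bp and Cox5a as 113 bp, since their starts lay outside the gene-end windows. Around those starts they had 937 and 921 bp. The starts of Atp5d and Atp5g3 in complex V also lay outside the windows, so both medians run low.

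**Figure D1:**
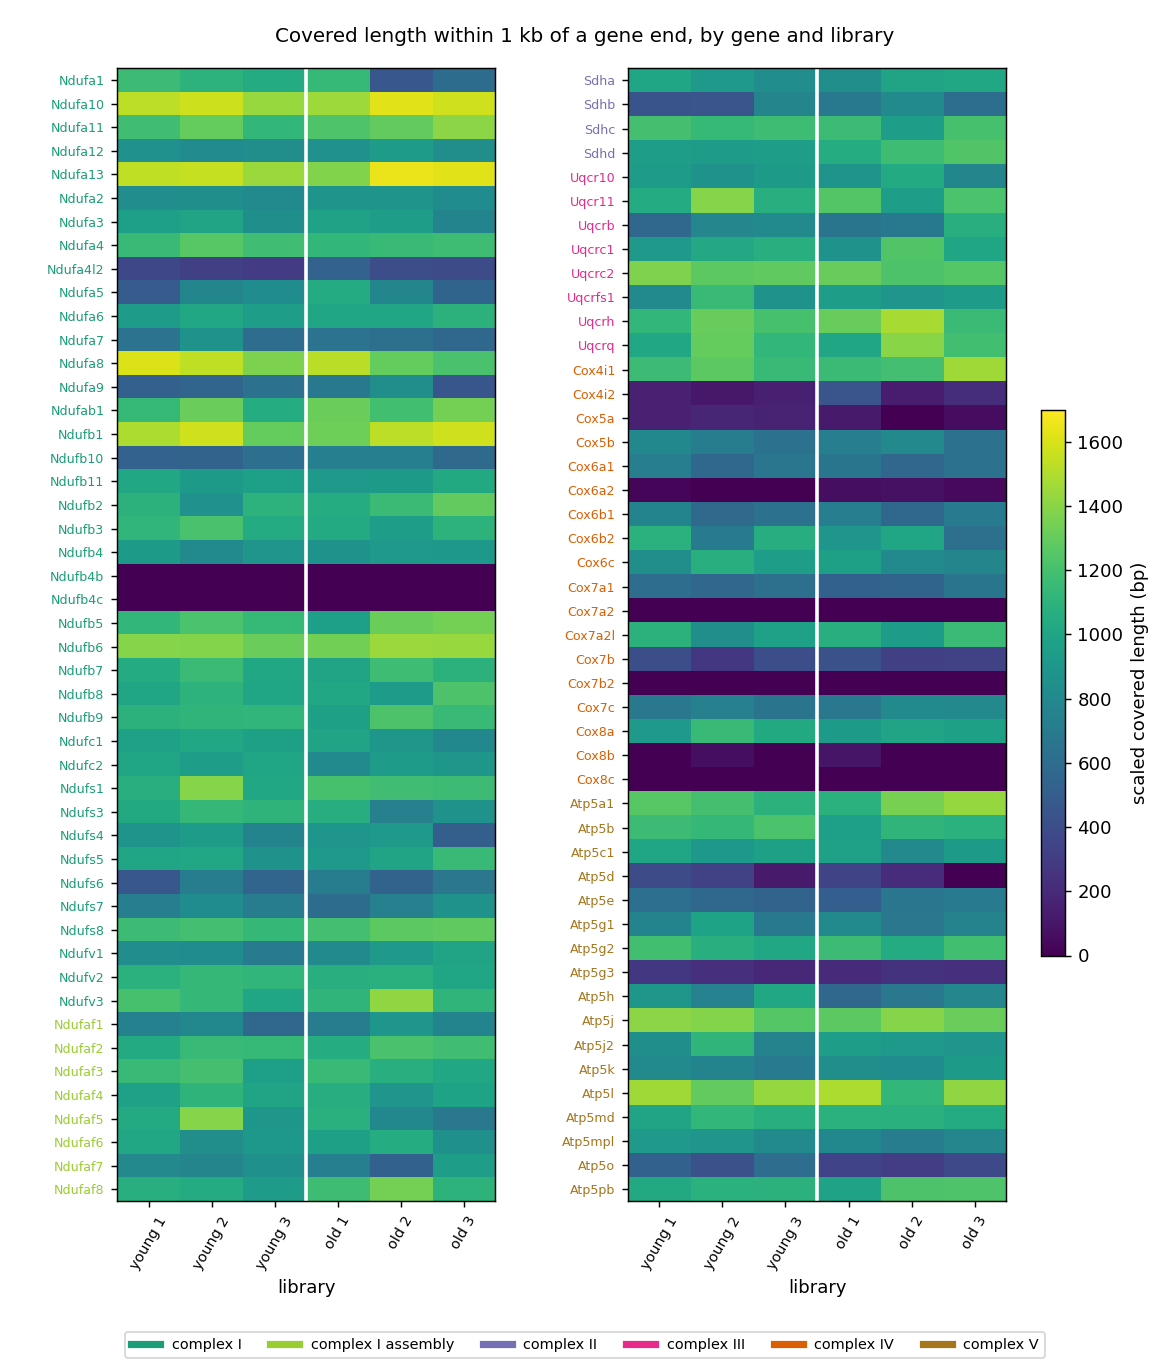
Scaled covered length in bp within 1 kb of a gene end (colour) for 95 of the 96 genes (vertical axis, label colour gives the complex) in 3 young and 3 old libraries (horizontal axis). Most genes hold the same shade across all 6 columns, and the dark bands are Ndufb4b, Ndufb4c and several complex IV genes, with Ndufa1 darker in old replicates 2 and 3.

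The peaks sat on the start sites. RefSeq promoter entries (GRCm38.p6, 250 bases before to 50 after the start) matched 78 of the 96 genes, with 83 entries in all. The start lay under a peak in all 6 libraries for 74 of these 78 genes (94.9%), against 52.7% of 17274 genes with an entry. Start sites of Cox7b2, Cox8b and Ndufb4b lay under no peak in any library, and that of Ndufb3 under one in 5 of 6. The peak over the start reached a median of 414 to 460 bp upstream and 416 to 458 bp downstream in the young libraries. In old replicate 1 it reached 460 and 458 bp, in old replicate 2 351 and 311 bp, and in old replicate 3 344 and 309 bp. Old replicates 2 and 3 had the shortest peaks. The same pair was shortest over all genes, with downstream reaches of 384 to 439 bp in young and 443, 313 and 322 bp in old.

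At 150 bp downstream of the start, 93.6%, 87.2% and 92.3% of the 78 starts were covered in young, and 91.0%, 73.1% and 78.2% in old. Old replicate 1 lay among the young libraries and the other two below them. The corresponding shares of all genes were 51.5%, 47.4% and 51.2% in young and 50.9%, 42.6% and 43.5% in old, with the same libraries low. At 1000 bp downstream the shares of the oxidative phosphorylation genes were 3.85% to 7.69% in young and 2.56% to 5.13% in old, below the 9.20% to 11.3% and 7.46% to 10.9% of all genes.

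**Figure D2:**
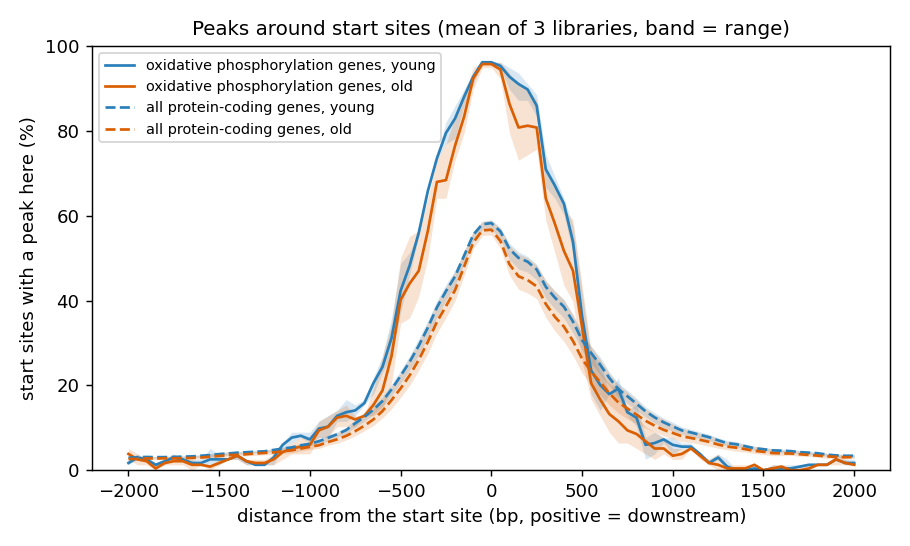
Percent of start sites with a peak (vertical axis) by distance from the start in bp (horizontal axis), for 78 oxidative phosphorylation genes (solid) and 17274 genes with a promoter entry (dashed), as the mean of 3 libraries per age with the range as a band. The solid curves reach 96.2% in young and 95.7% in old at the start and lie below the dashed curves at 1000 bp downstream.

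The start sites were often shared with another gene. Another protein-coding gene lay within 1 kb of an end for 58 of the 96 genes (60.4%), against 30.9% of all genes. Taking the first listed start of each gene, a gene on the opposite strand started within 1 kb upstream for 21 of the 78 genes with an entry (26.9%), against 7.61%. Starts lay 10 bp apart for Ndufa7 and Rps28, 19 bp for Ndufs3 and Kbtbd4, 52 bp for Sdhd and Timm8b, 77 bp for Sdha and Ccdc127, and 203 bp for Ndufaf8 and Tepsin. Such pairs share peaks, so the covered length at these starts belongs to both genes.

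Promoters of 6 genes are shown, picked among named genes whose entry held a searched motif, so that each holds a match by selection. Of them, 4 belong to the 6 genes with an unadjusted p under 0.05 between ages at their gene ends (Sdhd, Atp5h, Ndufs3 and Ndufaf8). The other promoters are those of the broadly used Cox7a2 and the muscle gene Cox8b. Each is the RefSeq sequence of GRCm38.p6, read in the direction of its gene, with matches to the 6 motifs searched in capitals. The motifs were GCGCA, any base and GCGC for NRF1, CCGGAAGT for ETS factors, AAGATGGCG for YY1, GGGCGG for SP factors, AAGGTCA for oestrogen-related receptors (ERR) and TATAAA for the TATA box, each on both strands, with overlaps between motifs allowed. Sdhd lies at chr9:50603800-50604099, Ndufs3 at chr2:90904672-90904971, Atp5h at chr11:115419870-115420169, Cox7a2 at chr9:79759804-79760103 and Cox8b at chr7:140900397-140900696, all on the minus strand, and Ndufaf8 at chr11:120098684-120098983 on the plus strand.
Sdhd: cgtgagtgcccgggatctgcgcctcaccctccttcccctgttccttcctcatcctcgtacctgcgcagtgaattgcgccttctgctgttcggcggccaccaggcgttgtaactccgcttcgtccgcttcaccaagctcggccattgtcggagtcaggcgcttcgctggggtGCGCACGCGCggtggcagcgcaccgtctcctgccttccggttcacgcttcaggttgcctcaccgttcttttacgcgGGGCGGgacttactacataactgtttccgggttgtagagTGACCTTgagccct
Ndufs3: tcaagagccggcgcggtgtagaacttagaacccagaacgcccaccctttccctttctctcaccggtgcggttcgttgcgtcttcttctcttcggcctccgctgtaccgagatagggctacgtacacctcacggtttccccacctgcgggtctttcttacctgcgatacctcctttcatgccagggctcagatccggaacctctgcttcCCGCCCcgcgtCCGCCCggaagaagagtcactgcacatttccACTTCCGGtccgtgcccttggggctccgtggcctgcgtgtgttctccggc
Atp5h: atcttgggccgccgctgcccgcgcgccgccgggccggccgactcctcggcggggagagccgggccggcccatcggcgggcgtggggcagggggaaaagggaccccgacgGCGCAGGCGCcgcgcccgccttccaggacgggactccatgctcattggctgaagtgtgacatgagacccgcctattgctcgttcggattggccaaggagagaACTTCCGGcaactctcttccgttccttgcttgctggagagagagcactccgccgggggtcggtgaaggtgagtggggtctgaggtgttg
Ndufaf8: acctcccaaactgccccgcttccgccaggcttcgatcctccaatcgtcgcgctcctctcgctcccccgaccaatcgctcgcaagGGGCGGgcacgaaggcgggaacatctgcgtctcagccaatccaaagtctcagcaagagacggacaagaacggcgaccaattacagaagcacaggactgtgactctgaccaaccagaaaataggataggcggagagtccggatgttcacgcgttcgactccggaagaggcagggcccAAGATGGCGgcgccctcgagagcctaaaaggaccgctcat
Cox7a2: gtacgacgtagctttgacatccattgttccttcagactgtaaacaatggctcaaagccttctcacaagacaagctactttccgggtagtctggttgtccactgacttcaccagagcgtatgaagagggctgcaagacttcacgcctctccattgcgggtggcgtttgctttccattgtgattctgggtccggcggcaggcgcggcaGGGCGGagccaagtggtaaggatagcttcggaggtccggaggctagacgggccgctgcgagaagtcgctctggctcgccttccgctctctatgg
Cox8b: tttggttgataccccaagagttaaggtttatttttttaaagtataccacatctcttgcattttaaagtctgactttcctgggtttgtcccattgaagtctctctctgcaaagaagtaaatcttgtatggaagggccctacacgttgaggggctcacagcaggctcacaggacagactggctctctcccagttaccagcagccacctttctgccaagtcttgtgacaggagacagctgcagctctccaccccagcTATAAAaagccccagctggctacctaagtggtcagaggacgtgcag

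In the Sdhd promoter the capitals mark an NRF1 match 79 to 70 bases before the start, an SP match across the start and an ERR match 36 to 42 bases after it. Atp5h holds an NRF1 and an ETS match, Ndufs3 an ETS match and 2 SP matches, and Ndufaf8 a YY1 match 10 to 18 bases after the start and an SP match. Cox7a2 holds 1 SP match and Cox8b 1 TATA match. All 300 bases of the Sdhd, Atp5h and Ndufaf8 promoters lay under peaks in all 6 libraries. The Ndufs3 promoter was covered over 300, 174 and 300 bases in young and 300, 179 and 300 bases in old, with young replicate 2 and old replicate 2 low. The Cox7a2 promoter was covered in full in 5 libraries and over 206 bases in old replicate 3. No base of the Cox8b promoter was covered in any library.

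Over all 83 entries, an NRF1 match was present in 20 (24.1%), against 6.44% of 21045 promoters. YY1 matches occurred in 8 (9.64%), against 1.84%, and ERR matches in 8 (9.64%), against 4.06%. For SP the shares were 36 entries (43.4%) and 46.7%, for TATA 9 entries (10.8%) and 12.7%, and for ETS 5 entries (6.02%) and 5.20%. The ETS share depended on the letters searched: the shorter CCGGAAG, a choice made after the first result was seen, was found in 19 entries (22.9%) against 11.7%. NRF1 matches fell in 8 of 37 complex I entries, 2 of 7 assembly factor entries, 2 of 3 complex II entries, 1 of 5 complex III entries, 1 of 13 complex IV entries and 6 of 18 complex V entries. Sdha and Ndufb4 carried 3 NRF1 matches each. Of the 8 YY1 matches, 7 lay 10 to 43 bases downstream of the start (in Ndufaf8, Ndufc1, Atp5j2, Ndufs7, Ndufa9, Ndufs6 and Ndufs4).

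Open chromatin covered every promoter match of the NRF1, YY1, ETS and ERR motifs in all 6 libraries (20, 8, 5 and 8 entries). SP matches were covered in all 6 libraries in 33 of 36 entries and TATA matches in 4 of 9. No share over all promoters stands beside these counts, and 74 of the 78 starts lay under a peak in all 6 libraries anyway. The TATA matches covered in no library were in 3 entries. These were Cox7b2 and Cox8b, whose starts lay under no peak, and Ndufb7, at 235 to 230 bases before its start. The promoters also differed in composition, with a median observed-to-expected CpG ratio of 0.829 against 0.574 and a GC content of 58.3% against 56.7%. The part of CpG content in the motif shares was not tested. A match describes letters in the sequence and not the binding of a factor.

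**Figure D3:**
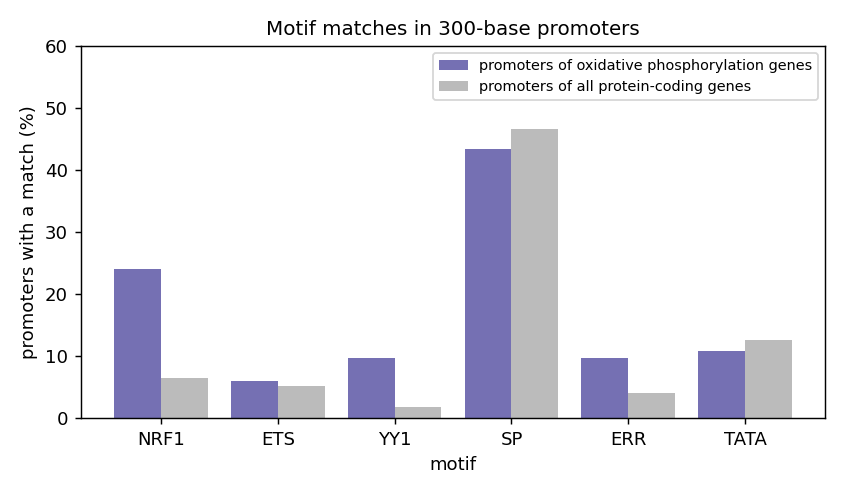
Percent of 300-base promoters with at least 1 match (vertical axis) for 6 motifs (horizontal axis), in 83 promoter entries of oxidative phosphorylation genes and in 21045 entries of all genes. The NRF1, YY1 and ERR bars are taller for the oxidative phosphorylation genes, and the SP and TATA bars are slightly shorter.

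Complex I, the NADH dehydrogenase, was open in all but a pair of its genes. A gene-end peak was present in all 6 libraries for 39 of 41 genes, and for all 8 genes of assembly factors, the proteins that build the complex and leave it. Ndufa13, an accessory subunit also called GRIM-19 (chr8:69894163-69902558), had the longest gene-end coverage, with 1536, 1553 and 1442 bp in young and 1380, 1653 and 1626 bp in old. Those ranges overlapped. Ndufb4b (chr19:25033108-25033578) and Ndufb4c (chr15:73809449-73809933), short copies of the accessory subunit gene Ndufb4, had no gene-end peak in any library, while Ndufb4 itself had 929, 816 and 885 bp in young and 876, 917 and 909 bp in old. Reads from near-identical copies can be split or discarded by mapping, so the absence of peaks at the copies is uncertain.

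Among the assembly factors, Ndufaf2, a relative of the subunit Ndufa12, was the longest covered, at 1111 ± 64.1 bp in young and 1148 ± 84.6 bp in old (SD, n = 3 each). Ndufaf1, which acts early in building the membrane arm, was the shortest, at 703 ± 118 and 795 ± 88.3 bp.

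Complex II, succinate dehydrogenase, also works in the citric acid cycle and is the only complex of the chain encoded wholly in the nucleus. All 4 of its genes had gene-end peaks among the 50000 strongest in every library. Sdhc, a membrane anchor, had 1200, 1138 and 1170 bp in young and 1169, 947 and 1203 bp in old. Sdha, the flavoprotein that oxidises succinate, had 1005, 915 and 834 bp in young and 840, 993 and 1012 bp in old. Both sets of values overlapped between ages. Sdhb, the iron-sulphur subunit (chr4:140961271-140979198), was the shortest covered, with 442, 448 and 775 bp in young and 684, 816 and 611 bp in old, and young replicate 3 fell among the old libraries. Its peak was nonetheless among the strongest, between rank 432 and rank 1616 of the 6 lists.

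Complex III, the cytochrome bc1 complex, had gene-end peaks among the 50000 strongest in every library at 8 of 8 genes. Uqcrc2, a core protein of the matrix side, was the longest covered, at 1309 ± 55.8 bp in young and 1260 ± 39.8 bp in old (SD, n = 3 each). Uqcrb, a small subunit near the ubiquinone site, was the shortest, at 723 ± 132 and 804 ± 226 bp. Uqcrh, the acidic hinge protein near cytochrome c1, had a peak between rank 183 and rank 2479 of the 6 lists.

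Complex IV, cytochrome c oxidase, divided by paralogue. Several of its subunits have a broadly expressed form and a form known from striated muscle, lung or testis. A gene-end peak was present in all 6 libraries for 12 of its 18 genes, and one among the 50000 strongest for 9. The broadly expressed Cox4i1 (chr8:120668225-120674209) had the longest coverage, with 1166, 1269 and 1146 bp in young and 1160, 1193 and 1455 bp in old. Its paralogue Cox4i2 (chr2:152753916-152765039), known from lung and from cells in low oxygen, had 159, 110 and 152 bp in young and 446, 131 and 224 bp in old, made of short peaks outside the 50000 strongest of every list. Every library placed Cox4i1 far above Cox4i2, whose old replicates 1 and 3 lay above the young range and old replicate 2 within it.

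Cox8a, the broadly expressed form of the smallest subunit, had 917, 1154 and 1031 bp in young and 923, 992 and 968 bp in old. Cox8b, the form of striated muscle and brown fat, had a peak of 65 bp in young replicate 2 and one of 103 bp in old replicate 1 and none elsewhere, and the testis form Cox8c had none. Cox6a1 had 726, 576 and 666 bp in young and 663, 563 and 644 bp in old. Its striated muscle paralogue Cox6a2 had 32, 0 and 0 bp in young and 61, 79 and 45 bp in old. The old values of Cox6a2 lay above the young ones, but all of them came from single peaks of 34 to 69 bp near the weak end of each list, and the gene fell below the minimum of 200 bp for testing. Cox7b, on the X chromosome, had 276 to 406 bp in young and 324 to 423 bp in old, and the testis form Cox7b2 had no gene-end peak in any library.

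Not every restricted form was closed. Cox7a1 (chr7:30184171-30186030), known from heart and skeletal muscle, had 607, 563 and 630 bp in young and 528, 549 and 659 bp in old, with a strongest peak between rank 3079 and rank 7852 of the 6 lists. Cox6b2 (chr7:4751792-4753094), known from testis, had 1087, 691 and 1061 bp in young and 892, 996 and 626 bp in old, but its peaks were weak and reached the 50000 strongest in only 2 of the 6 libraries. Its broadly expressed partner Cox6b1 had 588 to 765 bp in young and 567 to 730 bp in old. Both genes overlapped between ages, as did Cox7a1.

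Ndufa4, named for complex I but since found as a subunit of complex IV, had 1143, 1260 and 1177 bp in young and 1127, 1149 and 1174 bp in old. Its paralogue Ndufa4l2, known as a gene induced by low oxygen, had 368, 325 and 294 bp in young and 531, 403 and 390 bp in old. The 3 old values of Ndufa4l2 lay above the 3 young ones, yet the change did not pass the test (log2 change 0.27, SE 0.18, limma adjusted p = 0.70). Before scaling they overlapped, at 395, 318 and 324 bp in young and 578, 350 and 347 bp in old.

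For 3 genes without a gene-end peak in every library, the start itself was open. The promoter entry placed the start of Cox7a2 4612 bp, of Cox5a 3904 bp and of Atp5d 3553 bp inside the RefSeq gene span, beyond the 1 kb window. Around that start, Cox7a2, the broadly expressed partner of Cox7a1, had 1020, 984 and 999 bp in young and 999, 919 and 702 bp in old. Cox5a, a structural subunit of complex IV, had 870, 878 and 857 bp in young and 911, 1070 and 939 bp in old. Atp5d, the delta subunit of the central stalk of complex V, had 1079, 1070 and 1070 bp in young and 963, 1004 and 1303 bp in old. Only the old values of Cox5a lay clear of the young ones. A peak at a gene end or over the start was then present in all 6 libraries for 90 of the 96 genes (93.8%), and the 6 others were Cox6a2, Cox7b2, Cox8b, Cox8c, Ndufb4b and Ndufb4c.

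**Figure D4:**
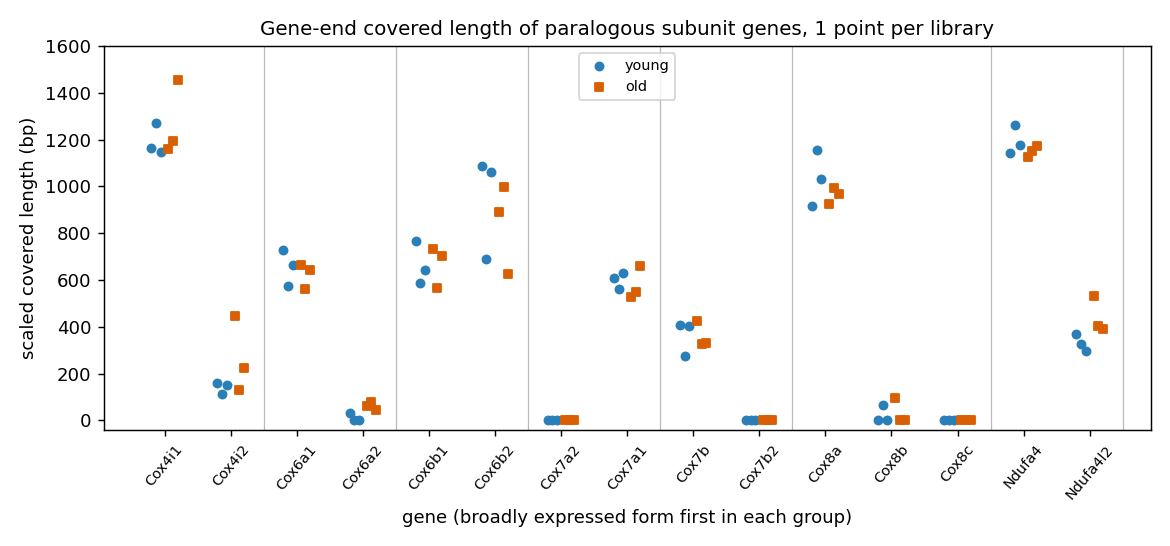
Scaled covered length in bp within 1 kb of a gene end (vertical axis) for paralogous subunit genes (horizontal axis, broadly expressed form first), with 1 point per library for 3 young and 3 old libraries. Cox4i1, Cox6a1, Cox8a and Ndufa4 stand above their paralogues in every library, Cox6b2 stands below Cox6b1 in old replicate 3 alone, and Cox7a2 is at 0 here where its start lies inside the annotated span and outside the window.

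Complex V, the ATP synthase, held the strongest peak of the set. Atp5g1 (chr11:96072793-96075694), one of 3 genes for the same c subunit of the rotor ring, ranked 15, 38 and 16 in the young lists and 24, 23 and 147 in the old ones. Its peak carried a fold enrichment of 10.8 to 12.5 over local background, as the authors' caller gave it. Atp5g2 ranked between 556 and 3138, and Atp5g3 lay in the first 28751 peaks of each list. Atp5b, the catalytic beta subunit, ranked between 227 and 577. Atp5l, subunit g of the membrane part, had the longest coverage, with 1456, 1290 and 1432 bp in young and 1488, 1125 and 1421 bp in old. Atp5g3 had the shortest at its gene ends, 234 ± 39.2 bp in young and 232 ± 18.7 bp in old (SD, n = 3 each). Its start lay 1138 bp inside the span, and around that start it had 999 to 1105 bp in young and 1034 to 1240 bp in old.

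No oxidative phosphorylation gene passed the test between young and old at its gene ends. Of the 96 genes, 88 had a mean of at least 200 bp and were tested with limma among 13851 genes on log2(bp + 200), which understates changes of sparsely covered genes. None was called at an adjusted p under 0.05, and 0% of all tested genes were. At an unadjusted p under 0.05 there were 6 (Sdhd, Ndufa1, Atp5h, Atp5o, Ndufs3 and Ndufaf8), beside 8.78% of all tested genes. The median log2 change, old minus young, was 0.02 for the set and 0.01 for all genes, with 48 positive and 40 negative values in the set. Without scaling to a common total, 13 were positive and 75 negative, and the medians were −0.11 for both the set and all genes. The 3 old values lay above the 3 young ones for 4 genes (Ndufa4l2, Ndufaf8, Sdhd and Atp5k), beside 6.76% of all genes, and below them for 5 (Ndufc2, Ndufv2, Atp5b, Atp5mpl and Atp5o), beside 6.62%. These counts are near the background. Without scaling they were 0 and 10 of the set, beside 136 and 1750 of all 13851 genes.

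Of the 88 log2 changes, 87 lay within 0.5 of 0, and for 76 genes the whole 95% interval did. Among all tested genes the intervals of 75.9% did so. The share of all gene-end covered length that fell to the 96 genes came to 0.649%, 0.668% and 0.632% in young and 0.647%, 0.652% and 0.653% in old. The old values lay inside the young range. Complexes I, III, IV and V and the assembly factors overlapped between ages too, while complex II had 0.0281%, 0.0268% and 0.0290% in young and 0.0292%, 0.0306% and 0.0317% in old, so that its 3 old values lay just above its 3 young ones.

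Among the 10000 strongest peaks of each list, 60, 63 and 56 of the 96 genes had a gene-end peak in young and 51, 54 and 54 in old. The old counts lay below the young ones. For all genes the counts were 6125, 6181 and 5764 in young and 5739, 5768 and 5690 in old, where old replicate 2 lay just above young replicate 3. Among the 50000 strongest the ages overlapped, since 84, 84 and 83 of the 96 genes in young and 83, 84 and 84 in old had a peak there.

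**Figure D5:**
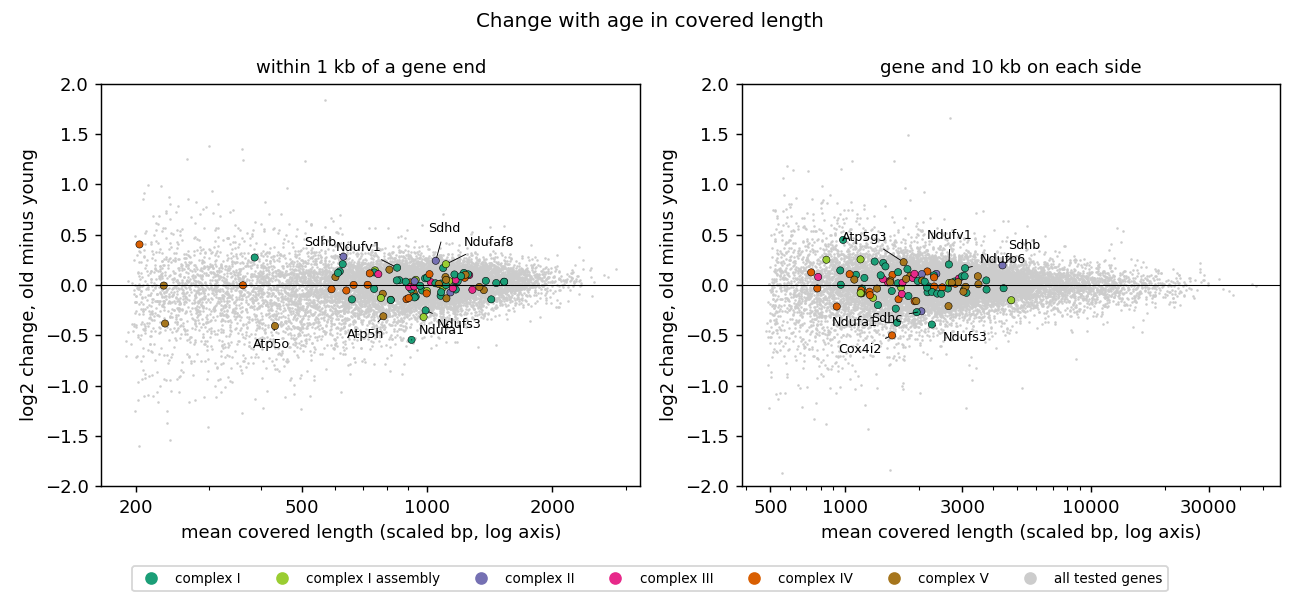
Log2 change in covered length, old minus young (vertical axis), against mean scaled covered length in bp on a log axis (horizontal axis), for windows of 1 kb around gene ends (left) and for the gene with 10 kb on each side (right), with oxidative phosphorylation genes coloured by complex over all tested genes in grey. All but 1 of the coloured points in each panel lie within 0.5 of 0, and the named genes have the smallest p in either direction.

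Sdhd, the second membrane anchor of complex II (chr9:50596340-50603849), had the smallest p among the genes that were longer in old. It had 954, 933 and 946 bp in young and 1055, 1170 and 1237 bp in old. All 3 old libraries lay above all 3 young ones, and the log2 change was 0.24 (SE 0.09, limma adjusted p = 0.44). Before scaling the ages overlapped, with 1024, 913 and 1041 bp in young and 1147, 1017 and 1101 bp in old. The window holds the shared start with Timm8b, whose product helps import proteins into mitochondria, and its promoter is the one printed above with the NRF1 match. Sdhb had a log2 change of 0.28 (SE 0.18, limma adjusted p = 0.69), and one of −0.02 on the equal-length lists of 50000 peaks.

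Ndufaf8, an assembly factor that works with Ndufaf5 (chr11:120098934-120100424), had 1064, 1046 and 936 bp in young and 1172, 1344 and 1097 bp in old. The old values lay above the young ones with a log2 change of 0.21 (SE 0.09, limma adjusted p = 0.57). Before scaling they were 1142, 1024 and 1030 bp in young and 1275, 1168 and 977 bp in old, with old replicate 3 below every young library. Ndufv1, the subunit that takes electrons from NADH, had 834, 824 and 696 bp in young and 815, 922 and 992 bp in old, and old replicate 1 lay within the young range.

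Ndufa1, an X-linked accessory subunit of the membrane arm (chrX:37187588-37191238), had the lowest log2 change at gene ends among the 88 tested oxidative phosphorylation genes and did not pass the test. It had 1164, 1096 and 1046 bp in young and 1136, 465 and 599 bp in old. Old replicate 1 lay within the young range and the other two old libraries far below it, with a log2 change of −0.55 (SE 0.20, limma adjusted p = 0.45). The change was −0.83 without old replicate 1 and −0.33 without old replicate 2 (limma adjusted p of 0.058 and 0.77). Across the Ndufa1 locus it was −0.37 (SE 0.15, limma adjusted p = 0.28). It passed without old replicate 1, which had the highest old locus value (−0.55, limma adjusted p = 0.049). Its strongest peak was 1083, 722 and 808 bp wide in young and 975, 232 and 180 bp in old, and was outside the 50000 strongest peaks of each list. The lists also held fewer X-chromosomal peaks in the same pair of old libraries, at 3200 and 3192, against 4538 in old replicate 1 and 4421, 3518 and 4966 in young. These 2 lists held 227978 and 215947 peaks in all, and that of young replicate 2 held 223018. The other X-linked genes of the set, Ndufb11 and Cox7b, overlapped between ages at their gene ends. Ndufb11 had 1011, 928 and 956 bp in young and 918, 927 and 1034 bp in old, and Cox7b 406, 276 and 405 bp and 423, 324 and 331 bp. Y-chromosomal peaks numbered 45, 52 and 56 in young and 50, 47 and 53 in old, and so overlapped between ages. The labels do not give the sex of the mice, and its part in this result was not tested.

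Atp5o, the OSCP subunit that ties the peripheral stalk to the catalytic head (chr16:91925223-91931630), had 530, 424 and 609 bp in young and 343, 306 and 374 bp in old. All old values lay below all young ones, with a log2 change of −0.41 (SE 0.17, limma adjusted p = 0.53). Atp5h, subunit d of the same stalk (chr11:115415691-115419919), had 901, 757 and 1014 bp in young and 572, 681 and 785 bp in old. Old replicate 3 overlapped the young range, and the log2 change was −0.31 (SE 0.13, limma adjusted p = 0.52). Ndufs3, a core subunit of the peripheral arm of complex I, had 1034, 1133 and 1108 bp in young and 1061, 743 and 870 bp in old, with old replicate 1 among the young libraries.

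A wider window gave no called gene either in the main fit of all 6 libraries, which leaves the replicate numbers out. With 10 kb on each side of the gene, 93 of the 96 genes were tested among 16952, and none passed an adjusted p of 0.05, where 0.962% of all genes did (65 wider and 98 narrower in old). An unadjusted p under 0.05 was found for 5 genes, beside 12.8% of all. The 3 old values lay above the young ones for 8 genes, beside 8.61%, and below them for 6, beside 8.37%. The median log2 change was 0.02 for the set and 0.01 for all genes. On the equal-length lists 184 of 14395 loci passed (1.28%), among them none of 89 oxidative phosphorylation genes, and at gene ends 45 of 10940 genes (0.411%), among them none of 83.

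Cox4i2 came nearest to the threshold. Its locus had 2076, 1592 and 1915 bp in young and 1434, 1118 and 1213 bp in old. All old values lay below all young ones, and the log2 change was −0.50 (SE 0.13, limma adjusted p = 0.084). The largest differences between the means of the ages lay in the gene body. Smaller ones lay near a gene end and over the neighbouring gene Bcl2l1. A gene body region of 540 bp (chr2:152758127-152758666) was covered over 540, 179 and 461 unscaled bp in young and 0, 103 and 0 bp in old, and one of 380 bp (chr2:152756914-152757293) over 84, 370 and 202 bp in young and 29, 0 and 87 bp in old. Both regions were lower in old on average, and only the first kept the ages apart. A region of 309 bp within 1 kb of a gene end (chr2:152754395-152754703) went the other way. It was covered over 47, 0 and 0 unscaled bp in young and 309, 72 and 55 bp in old. At the gene ends of Cox4i2 the log2 change was 0.40 (SE 0.29, limma adjusted p = 0.73), opposite in sign to that of the locus. Leaving out old replicate 1 made the locus change pass (−0.59, limma adjusted p = 0.043), and on the equal-length lists the locus change was 0.00.

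Ndufs3 had 2304, 2729 and 2706 bp in young and 2255, 1490 and 2072 bp in old across its locus. The old values lay below the young ones, with a log2 change of −0.39 (SE 0.13, limma adjusted p = 0.18). Part of that difference lay in a region over the neighbouring gene C1qtnf4 (chr2:90889619-90890628), which was covered over 790, 743 and 926 unscaled bp in young and 561, 167 and 425 bp in old. The Sdhc locus had 2183, 2183 and 2388 bp in young and 1800, 1760 and 1977 bp in old, also without overlap (log2 change −0.26, SE 0.10, limma adjusted p = 0.29). With only peaks of a −log10 q of at least 5, the Sdhc change was 0.10.

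In the other direction, the Sdhb locus had 3877, 4331 and 3974 bp in young and 4296, 4953 and 4794 bp in old, where old replicate 1 lay just under young replicate 2 (log2 change 0.20, SE 0.08, limma adjusted p = 0.33). The Atp5g3 locus had 1575, 1602 and 1569 bp in young and 1927, 2052 and 1690 bp in old. Its old values lay above the young ones, with a log2 change of 0.23 (SE 0.11, limma adjusted p = 0.43). The region over the Atp5g3 start was covered over 1097, 1090 and 1094 unscaled bp in young and 1120, 1080 and 1083 bp in old. A flank region of 531 bp (chr2:73901171-73901701) was covered over 0, 233 and 179 bp in young and 522, 461 and 314 bp in old. Most other flank regions were shorter in old on average. Ndufv1 and Ndufb6, an accessory subunit of the membrane arm, also had all old locus values above the young ones, with log2 changes of 0.20 (SE 0.10) and 0.17 (SE 0.09) and limma adjusted p of 0.42 and 0.46.

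Other genes of the pathway were open as well. Of 33 genes for cytochrome c, cytochrome c1 and assembly factors outside the naming rule, 32 had a gene-end peak in all 6 libraries, and Atpaf2, an assembly factor of complex V, had none. None of the 32 tested was called, 23 changes were positive and 9 negative, and their median was 0.08. Among all 13851 tested genes, 7413 were positive and 6438 negative, with a median of 0.01. Without scaling, 7 of the 32 were positive and 25 negative (median −0.05), beside 2611 and 11240 of all genes (median −0.11). Bcs1l, which inserts the Rieske protein into complex III, had 1074, 1095 and 1099 bp in young and 1174, 1477 and 1422 bp in old. The old values lay above the young ones (log2 change 0.27, SE 0.09, limma adjusted p = 0.42). Lyrm7, the chaperone of the Rieske protein, had a log2 change of 0.24 at its gene ends (SE 0.11, limma adjusted p = 0.58).

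Of 14 regulators of mitochondrial gene expression, among them Nrf1, Gabpa, Yy1, Esrra, Ppargc1a and Tfam, 13 had a gene-end peak in all 6 libraries. None was called among the 12 tested at gene ends or the 14 tested across the locus. Lrpprc, which stabilises mitochondrial messenger RNAs, had 2410, 2754 and 2238 bp across its locus in young and 1872, 2119 and 2089 bp in old. Ppargc1b, a coactivator of NRF1 and ERR targets, had 7201, 7331 and 7136 bp in young and 6612, 6171 and 6393 bp in old. In both, the old values lay below the young ones, and neither passed the test (log2 changes −0.26 and −0.17, limma adjusted p of 0.31 and 0.28).

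Read depth is not known for these libraries, and a gene without a peak may still be open below the calling threshold. In data simulated for the 13851 genes of the gene-end comparison, 36% of genes changed by 0.5 log2 units were called. The calls reached 75% for changes of 1 and 92% for changes of 2, so a change of 0.5 in a single gene would often have been missed.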

How the data were processed

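The 6 libraries are Omni-ATAC libraries, each read as pairs of 125 bp. Per the submitters' processing notes the build was mm10 and the tools were MACS2 2.1.0.20140616, Bowtie2 2.2.6, Picard, SAMtools, cutadapt 1.14 and Trim Galore 0.4.4, with no roles stated. Whether duplicates were removed, read ends shifted or regions masked is not given in the sources used here. One broad peak list per library was deposited. Each deposited peak carries a score, a fold enrichment (ratio over local background), a −log10 p and a −log10 q. The last of these ordered and thresholded the peaks of 1 list at a time.

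Genes and promoters came from RefSeq (GRCm38.p6, the same primary chromosomes as mm10). The members and gene lists were chosen with earlier results of these data known. Base pairs under peaks were summed within 1 kb of both gene ends, and over the gene with 10 kb on each side, and scaled to a common library sum. Genes with a mean of 200 bp (ends) or 500 bp (locus) before scaling entered limma 3.58.1 (R 4.3.3, with trend and robust settings) on log2(bp + 200), old minus young, adjusted by Benjamini-Hochberg over all tested genes. Peaks were counted as overlapping from 1 bp. Peaks of different lists were compared by rank or in equal-length lists of the 50000 strongest peaks. Python 3.11.15 with numpy 2.4.6, pandas 2.3.3, scipy 1.17.1 and matplotlib 3.10.9 did the rest. The tests were checked on simulated data with 200 changed genes.

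The text names members with the 4 smallest p per direction in each window, the longest and shortest covered of each complex, members lacking a gene-end peak somewhere, paralogue pairs, the 4 complex II genes, and the 2 smallest p of each other list. Others (Uqcrh, Atp5g1, Atp5g2 and Atp5b by rank, and members whose ages did not overlap) were named after their values were seen. Alternatives were equal-length lists, a minimum −log10 q of 2 or 5, windows of 500 bp or 2 kb, a pseudocount of 50, no scaling, quantile normalization, no filter, covered length as a covariate, dropping each library in turn and a block for the replicate number. Promoter-table starts, the shorter ETS motif and the block on equal-length lists were added after the data were seen. One gene is counted in the totals and is not reported here by itself.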

Additional observations from a re-analysis of the deposited data

How the results depend on the processing

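Of 277 values of the 12 tested named genes under the alternatives, 270 kept their direction and their side of the threshold. The 4 that turned were small: Cox4i2 across its locus on equal-length lists (0.00064), Sdhc across its locus at a −log10 q of at least 5 (0.0991), and Sdhb at its gene ends on equal-length lists without and with the replicate block (−0.0158 in both). The number of oxidative phosphorylation genes called was 0 at gene ends under every alternative run. Across loci it was 1 with the replicate block (Cox4i2, limma adjusted p = 0.045) and ran from 0 to 2 when single libraries were left out; the 2 came without old replicate 1 (Cox4i2 and Ndufa1, −0.59 and −0.55). Whether replicate numbers pair the libraries is not given by the labels. The correlations of same-numbered deviations were 0.13, 0.13 and −0.11, and those of the others ran from −0.28 to 0.20. With 3 libraries per age these values cannot settle it. On equal-length lists the share of gene-end length held by the set changed by −0.0124 percentage points. Over all genes, the calls across loci moved from 163 to 276 with the block, 4 without a filter, 15 without scaling, 60 with covered length as a covariate, 9 at a −log10 q of at least 5, and 31 to 352 with single libraries left out; the cause was not tested. Without scaling, the median log2 change was −0.13 for the set and −0.145 for all genes across loci, and −0.11 for both at gene ends. The ETS share was 22.9% with the shorter motif. Unknown read depth limits what the absence of a peak can show.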
